A study of Homo sapiens with 4 samples.

Results

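Laminin chains and the integrins that bind laminin were followed in a brain metastatic breast cancer line and its parental line through 9 named genes. They are the laminin chain genes LAMA3, LAMA5, LAMB1, LAMB2, LAMB3 and LAMC1 and the integrin genes ITGA3, ITGA6 and ITGB4. The genes were taken by name, but with earlier results of these data known, so the choice was not blind to their values. All 9 have a row among the 15279 named genes of the deposited table. The comparison sets LAMA3 and LAMB3, chains of laminin-332, with the receptors ITGA3, ITGA6 and ITGB4, against the other chains LAMA5, LAMB1, LAMB2 and LAMC1.

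RNA-seq was made from 2 libraries of MDAMB231Br, the brain metastatic line, and 2 of MDAMB231, the triple-negative human breast cancer line it was derived from. Both lines were cultured in DMEM with 10% FBS and PS, and no other treatment or genetic change is given in the labels. The brain metastatic line is a single derivative of a single parental line, so a difference between them is a difference between these lines and not between brain metastases and breast tumours. Nothing in the labels says that a line's libraries are separate cultures, so p-values rest on a library-to-library spread that may be technical. The letters A and B follow the order of the table's columns, and a letter links no library of one line to a library of the other.

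Laminins are heterotrimers of an α, a β and a γ chain that polymerise into the sheet of basement membranes, and a trimer is named by its chain numbers. Laminin-332, which holds the α3 and β3 chains, is the adhesive laminin of skin and mammary epithelium, where integrin α6β4 anchors it to keratin filaments through hemidesmosomes and α3β1 binds it at focal contacts. Laminins with the α5 chain (joined to β1 or β2 and γ1) are widespread, including in the walls of blood vessels, and are bound by α6β1, α3β1 and α6β4. The α6 subunit pairs with β4 in preference to β1 when both are made.

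Library depth was 28107820 and 25835225 reads in the brain metastatic line and 30771290 and 27554570 reads in the parental line. The lowest count of any member was 487 reads, for ITGB4, and the highest 54475 reads, for ITGA6. Between the brain metastatic libraries the members differed by log2 0.26 to 1.12, more than counting error. Between the parental libraries some members differed no more than counting error, LAMB3 by log2 0.011. Of 5 mesenchymal markers, VIM stood at 4375 and 4367 CPM (reads scaled to the library total) in brain metastatic libraries and 1618 and 1438 CPM in parental libraries. FN1 was at 397 and 708 CPM in brain metastatic libraries and 171 and 144 CPM in parental libraries. Over the 4 libraries ZEB1 was at 128 to 141 CPM, while CDH2 was only at 0.194 to 0.544 CPM and TWIST1 at 0 to 0.0387 CPM. CDH1, the epithelial cadherin, and ESR1, the oestrogen receptor, were below 1 CPM in all 4 libraries. Other epithelial markers were present, with KRT8 at 89.1 to 133 CPM, KRT19 at 99.9 to 162 CPM and EPCAM at 3.38 to 14.9 CPM over the 4 libraries. The 7 epithelial markers summed to 310 to 359 CPM in brain metastatic libraries and 357 to 363 CPM in parental libraries, most of it from KRT8, KRT18 and KRT19. Single markers differed more than this sum. CLDN4 was at 14.5 and 17.0 CPM in brain metastatic libraries and 39.9 and 46.4 CPM in parental libraries. KRT18 went the other way, at 87.7 and 84.8 CPM against 76.9 and 62.5 CPM. The median log2 difference of the 6 tested markers was -0.87. Of the basal markers, KRT5 was at 0 to 0.145 CPM, and KRT14 and KRT17 were not analysed here. Of 20 markers of fibroblasts, endothelium, leukocytes and neural or glial cells, 5 had a row in the table. The endothelial sum was 26.6 to 30.0 CPM in brain metastatic libraries and 4.78 to 8.53 CPM in parental libraries, most of it from KDR and PECAM1, while CDH5 was at 0 to 0.178 CPM. The neural and glial sum was 144 to 150 CPM in brain metastatic libraries and 89.6 to 96.5 CPM in parental libraries, most of it from MBP. The part of these genes in the values below was not tested.

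RefSeq promoter windows (GRCh38.p14, 250 bases before to 50 after a start site) were at hand for 7 of the 9 genes, in 10 windows, and ITGA3 and ITGB4 are only named. The windows of 3 chains are shown because the chains differ in their values below: LAMA3 and LAMB3 belong to the same trimer, of which LAMB3 was higher and LAMA3 not separated between the lines, and LAMB1 was the 1 member that was lower in brain metastatic cells. They were chosen with these values known. The LAMA3 window lies at chr18:23872770-23873069 on the + strand, at a start site 183567 bases inside the gene. The LAMB3 window lies at chr1:209651325-209651624 on the − strand, at the third of 3 listed start sites, 1051 bases inside the gene. The LAMB1 window lies at chr7:108003112-108003411 on the − strand. Capitals mark the AP-1 motif, TGANTCA, which reads the same on both strands.
LAMA3: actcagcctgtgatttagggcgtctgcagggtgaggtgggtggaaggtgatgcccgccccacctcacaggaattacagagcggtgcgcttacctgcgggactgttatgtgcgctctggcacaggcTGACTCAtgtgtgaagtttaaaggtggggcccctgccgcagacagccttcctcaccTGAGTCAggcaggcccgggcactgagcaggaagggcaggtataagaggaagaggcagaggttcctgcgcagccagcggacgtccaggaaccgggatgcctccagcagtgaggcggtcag
LAMB3: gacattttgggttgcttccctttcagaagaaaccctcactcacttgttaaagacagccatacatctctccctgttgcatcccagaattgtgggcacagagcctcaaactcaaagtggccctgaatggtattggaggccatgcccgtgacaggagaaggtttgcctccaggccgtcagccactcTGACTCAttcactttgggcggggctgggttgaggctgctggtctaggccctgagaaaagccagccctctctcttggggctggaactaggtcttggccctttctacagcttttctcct
LAMB1: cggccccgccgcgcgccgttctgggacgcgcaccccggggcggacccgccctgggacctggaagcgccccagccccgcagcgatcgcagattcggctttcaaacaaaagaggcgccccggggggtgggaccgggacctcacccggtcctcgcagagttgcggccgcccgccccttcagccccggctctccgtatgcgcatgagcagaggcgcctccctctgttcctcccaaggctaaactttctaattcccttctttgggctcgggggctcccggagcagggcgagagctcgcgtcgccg
The LAMA3 window holds 2 AP-1 matches, beginning 125 and 69 bases before the start site, and the LAMB3 window holds 1, beginning 67 bases before it. The windows at the other 2 LAMB3 start sites, 0 and 96 bases inside the gene, hold no AP-1 match, and the third was picked for showing because it holds one. No AP-1 match occurs in the LAMB1 window or in the windows of LAMA5, LAMB2, LAMC1 and ITGA6. Of 35116 windows of the same length, 7.71% hold at least 1 such match and 0.515% hold 2 or more. The GC box GGGCGG was searched on both strands and shares no bases with the AP-1 matches. It occurs in all 10 windows of these 7 genes, 1 time in that of LAMA3 and 4 times in that of LAMB1, and in 44.95% of all windows. Some windows of LAMB3 and of ITGA6 overlap, so the 10 are not separate. By gene, 48.3% of 27305 genes hold it in at least 1 window. A match describes these letters only.

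Taken as a whole, 6 of the 9 members passed the test (limma-trend on log2(normalized reads + 1), adjusted p below 0.05 over 14424 genes), 5 of them higher in brain metastatic cells and 1 lower. Of all tested genes 14.4% passed, 8.61% higher and 5.8% lower. ITGB4, LAMA5, ITGA6, LAMB3 and LAMB2 rose in the brain metastatic line, LAMB1 fell, and LAMA3, LAMC1 and ITGA3 did not pass. edgeR and DESeq2 on the recovered reads likewise called 5 members higher and 1 lower. Of all genes, edgeR called 15.4% (8.96% higher, 6.48% lower) and DESeq2 20.2% (11.3% higher, 8.92% lower). The libraries of the 2 lines did not overlap for 8 of the 9, 7 higher and 1 lower, but this holds for 61.3% of all genes (31.7% higher, 29.7% lower) and so says little about the members. The count of calls depended on which library was left out. Without brain metastatic library A, 6 members passed higher and 1 lower, beside 36.4% of all genes (19.8% higher, 16.7% lower). With brain metastatic library B left out, 4 passed higher and 1 lower, beside 21.8% (11.6% higher, 10.2% lower). Leaving out parental library A left 1 higher and 0 lower, beside 2.92% (2.15% higher, 0.77% lower). Leaving out parental library B left 1 higher and 1 lower, beside 2.97% (2.46% higher, 0.513% lower).

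**Figure D1:**
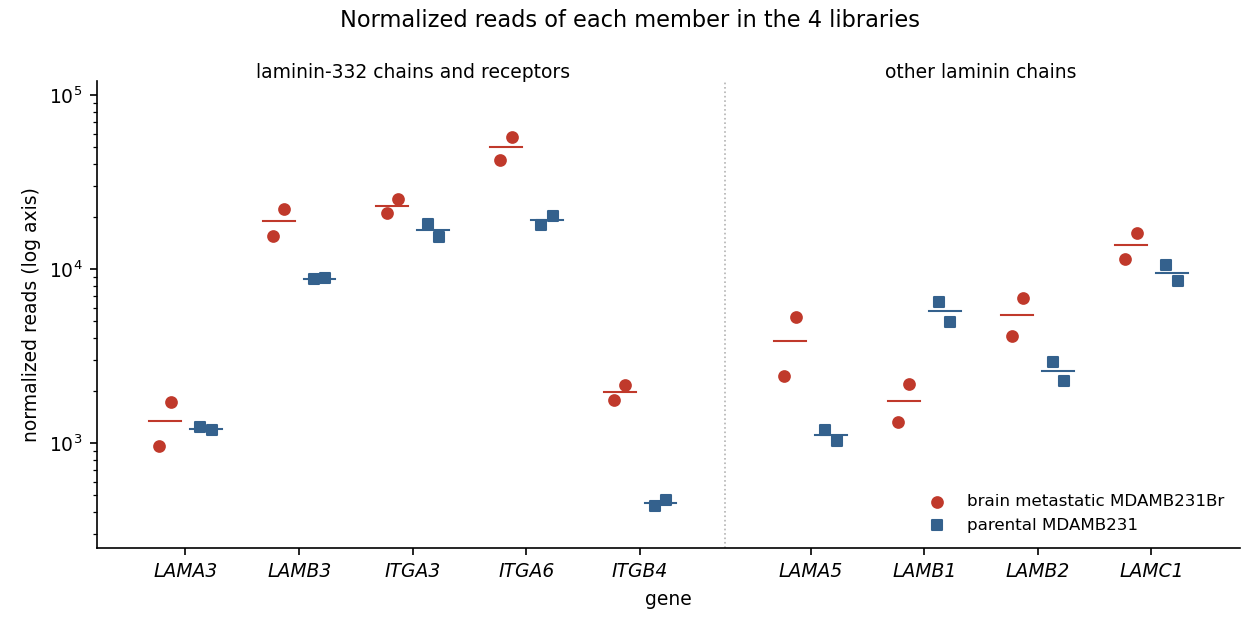
Normalized reads of the 9 members in each library on a log axis, with brain metastatic libraries left of parental libraries; each point is a library and each bar the mean of a line. ITGB4, ITGA6, LAMB3, LAMA5 and LAMB2 sit higher in both brain metastatic libraries, LAMB1 sits lower, and the LAMA3 values of the lines overlap.

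Among the laminin-332 chains, LAMB3 rose, and LAMA3 was not separated between the lines. LAMB3, the β3 chain found in no other laminin, had 15543 and 22027 normalized reads in brain metastatic libraries, against 8760 and 8826 in parental libraries. Both brain metastatic values were above both parental values, with means of 18785 ± 4585 in brain metastatic and 8793 ± 47.0 in parental cells (SD, n = 2 each). The difference was 2.14-fold (log2 1.07 ± 0.25 SE, limma adjusted p = 0.0257), and it passed in 2 of the 4 fits that left out a library (adjusted p up to 0.203), those without a brain metastatic library.

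LAMA3, the α3 chain of laminin-332, had 964 and 1712 normalized reads in brain metastatic libraries, against 1238 and 1185 in parental libraries. The brain metastatic libraries lay on either side of the parental pair, so the lines overlapped. Its log2 difference was 0.08 with a 95% interval of -0.61 to 0.78 (limma adjusted p = 0.871). Without brain metastatic library B the difference was -0.33 and without library A 0.50, so no direction can be given for this chain.

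The other chains moved in both directions. LAMA5, the α5 chain of laminin-511 and laminin-521, had 2442 and 5294 normalized reads in brain metastatic libraries, against 1183 and 1030 in parental libraries. Both brain metastatic values were higher, and the difference was 3.50-fold (log2 1.70 ± 0.35 SE, limma adjusted p = 0.0186). Its size differed between the libraries, at log2 1.15 in A and 2.26 in B over the parental mean, and it passed in 2 of the 4 fits that left out a library (adjusted p up to 0.121). LAMA5 overlaps ADRM1 on the opposite strand, which did not pass the test (2023 and 1825 normalized reads in brain metastatic libraries, 2131 and 1851 in parental libraries).

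LAMB1, the β1 chain of the most widespread laminins, had 1325 and 2176 normalized reads in brain metastatic libraries, against 6502 and 4929 in parental libraries. Every brain metastatic value was below every parental value. The mean was 1750 ± 601 in the brain metastatic line and 5715 ± 1113 in the parental line (SD, n = 2 each), which makes the parental mean 3.27-fold higher (log2 difference -1.74 ± 0.29 SE, limma adjusted p = 0.00825). The call held in 3 of the 4 fits that left out a library, with adjusted p up to 0.0777. DLD, which overlaps LAMB1 on the opposite strand, had 3974 and 3645 normalized reads in brain metastatic libraries and 5899 and 5524 in parental libraries, a log2 difference of -0.58 that did not pass (limma adjusted p = 0.104). The strand setting of the counting is not given in the sources used here, so reads of the overlapping stretch cannot be assigned to either gene.

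LAMB2, the β2 chain that replaces β1 in laminin-521, had 4144 and 6807 normalized reads in brain metastatic libraries, against 2903 and 2265 in parental libraries. The lines did not overlap, and the difference was 2.12-fold (log2 1.05 ± 0.29 SE, limma adjusted p = 0.0471). This call lay just below the threshold: the adjusted p was 0.0528 with upper-quartile scaling and 0.0565 with no filter on low counts, and it held in 1 of the 4 fits that left out a library. LAMC1, the γ1 chain shared by most laminins, had 11369 and 16140 normalized reads in brain metastatic libraries, against 10499 and 8513 in parental libraries. Its lines did not overlap, but the log2 difference of 0.52 (95% interval -0.07 to 1.11, limma adjusted p = 0.203) did not pass, although it did without brain metastatic library A (0.77, adjusted p = 0.0198).

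Of the receptor subunits, ITGB4 and ITGA6 rose and ITGA3 did not pass. ITGB4, the β4 subunit that pairs with α6 alone and carries the long cytoplasmic tail that reaches hemidesmosomes, had 1773 and 2147 normalized reads in brain metastatic libraries, against 435 and 472 in parental libraries. The groups were far apart, with means of 1960 ± 265 in brain metastatic and 454 ± 26.4 in parental cells (SD, n = 2 each). The difference was 4.32-fold (log2 2.10 ± 0.24 SE, limma adjusted p = 0.00177), and ITGB4 was the 1 member that passed in all 4 fits that left out a library (adjusted p up to 0.0246).

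ITGA6, the α6 subunit common to α6β1 and α6β4, had 42154 and 57725 normalized reads in brain metastatic libraries, against 18002 and 20173 in parental libraries. Both brain metastatic values were higher, and the difference was 2.62-fold (log2 1.37 ± 0.25 SE, limma adjusted p = 0.0107), which passed in 2 of the 4 fits that left out a library (adjusted p up to 0.124). The antisense gene AC078883.1, which overlaps it, held 126 and 227 reads in brain metastatic libraries and 109 and 134 in parental libraries, few beside those of ITGA6.

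ITGA3, the α3 subunit that pairs with β1, had 21105 and 25208 normalized reads in brain metastatic libraries, against 18223 and 15232 in parental libraries. The lines did not overlap, but the log2 difference of 0.47 (95% interval -0.06 to 1.00, limma adjusted p = 0.203) did not pass here or in any fit that left out a library. ITGB1, the β1 partner of α3 and α6 and no member, had 40035 and 53942 normalized reads in brain metastatic libraries, against 46717 and 51325 in parental libraries. Its lines overlapped (log2 difference -0.08, limma adjusted p = 0.859).

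**Figure D2:**
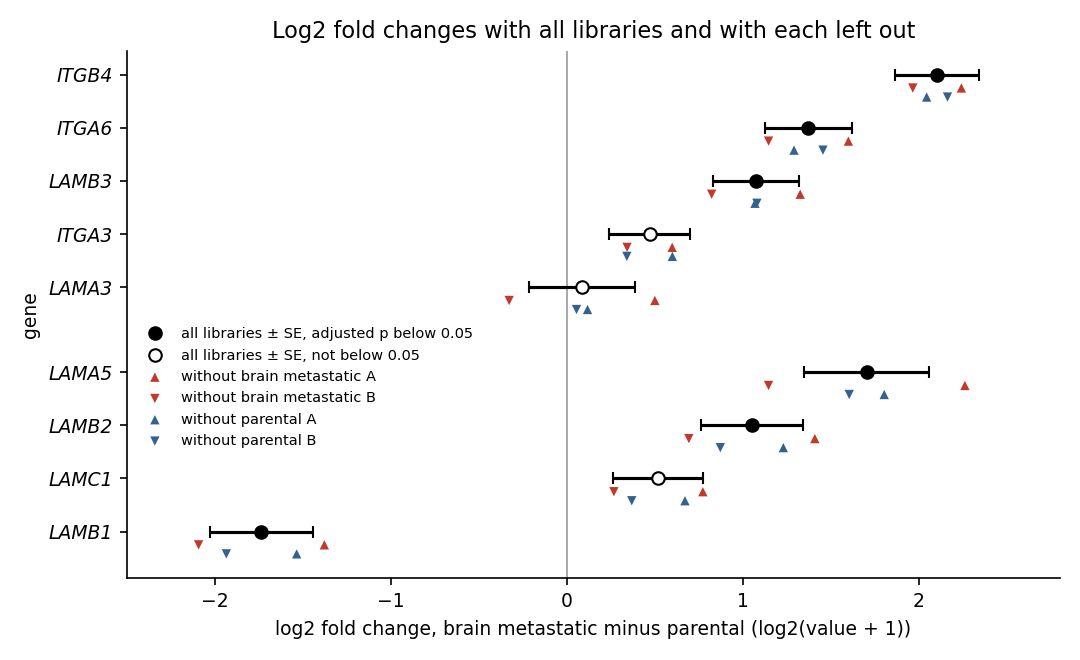
Log2 difference of brain metastatic minus parental cells for the 9 members, with bars for the standard error of the limma fit, filled circles for adjusted p below 0.05 and small triangles for the fits that left out a library. ITGB4 (2.10), LAMA5 (1.70), ITGA6 (1.37), LAMB3 (1.07) and LAMB2 (1.05) lie above 0 and LAMB1 (-1.74) below, while LAMA3 (0.08), ITGA3 (0.47) and LAMC1 (0.52) are open circles.

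Set against each other, the 2 sets of genes overlapped. Of LAMA3, LAMB3, ITGA3, ITGA6 and ITGB4, 3 of 5 rose and none fell, with log2 differences of 0.08 to 2.10 and a median of 1.07. Of LAMA5, LAMB1, LAMB2 and LAMC1, 2 of 4 rose and 1 fell, with log2 differences of -1.74 to 1.70 and a median of 0.78. Of all tested genes 8.61% rose and 5.8% fell, and their median was 0.01. The ranges overlap because LAMA3 was not separated between the lines and LAMA5 and LAMB2 rose; LAMB1 alone lay below the range of the laminin-332 chains and receptors. When a library was left out, the median of the laminin-332 chains and receptors was 0.82 to 1.32. That of the other chains was 0.48 to 1.09. No test of the sets against each other was made.

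Ratios within a library do not depend on its scaling, and they set LAMB1 apart from LAMB2 and LAMB3. Scaled by transcript length, LAMB3 made up 79.0% and 76.4% of the summed β chain level in brain metastatic libraries, against 55.4% and 62.05% in parental libraries. LAMB1 made up 5.03% and 5.64% in brain metastatic libraries, against 30.7% and 25.9% in parental libraries. LAMB2 held 16.0% and 17.9% in brain metastatic libraries, against 13.9% and 12.1% in parental libraries. The 2 lines did not overlap in any of the 3 shares, but the shares of a library add up to the whole and are not separate observations. Normalized reads of the lines did not overlap for 61.3% of all genes.

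LAMB3 was 15.7 and 13.6 times the level of LAMB1 in brain metastatic libraries, against 1.80 and 2.40 times in parental libraries, each per length. LAMB2 to LAMB1 was 3.18 in both brain metastatic libraries, against 0.454 and 0.467 in parental libraries, so the order of these chains was turned round between the lines. LAMB3 to LAMB2 overlapped between the lines, at 4.94 and 4.26 in brain metastatic libraries and 3.98 and 5.14 in parental libraries, although the chains come from different sets of the comparison above.

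The α chains shifted in composition as well. LAMA5 made up 62.4% and 67.6% of the summed level of the 5 α chains per length in brain metastatic libraries, against 39.1% and 36.2% in parental libraries. LAMA3 made up 26.4% and 23.4% in brain metastatic libraries, against 43.9% and 44.6% in parental libraries. The level of LAMA3 to LAMA5 was 0.423 and 0.347 in brain metastatic libraries, against 1.12 and 1.23 in parental libraries, so LAMA5 was the higher of the pair in brain metastatic cells and LAMA3 in parental cells. LAMA3 also makes short transcripts, and its level per longest transcript is then a low estimate. This can touch its level, the α chain shares and which of LAMA3 and LAMA5 is the higher. It does not touch the log2 difference between lines if the transcripts used are the same.

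**Figure D3:**
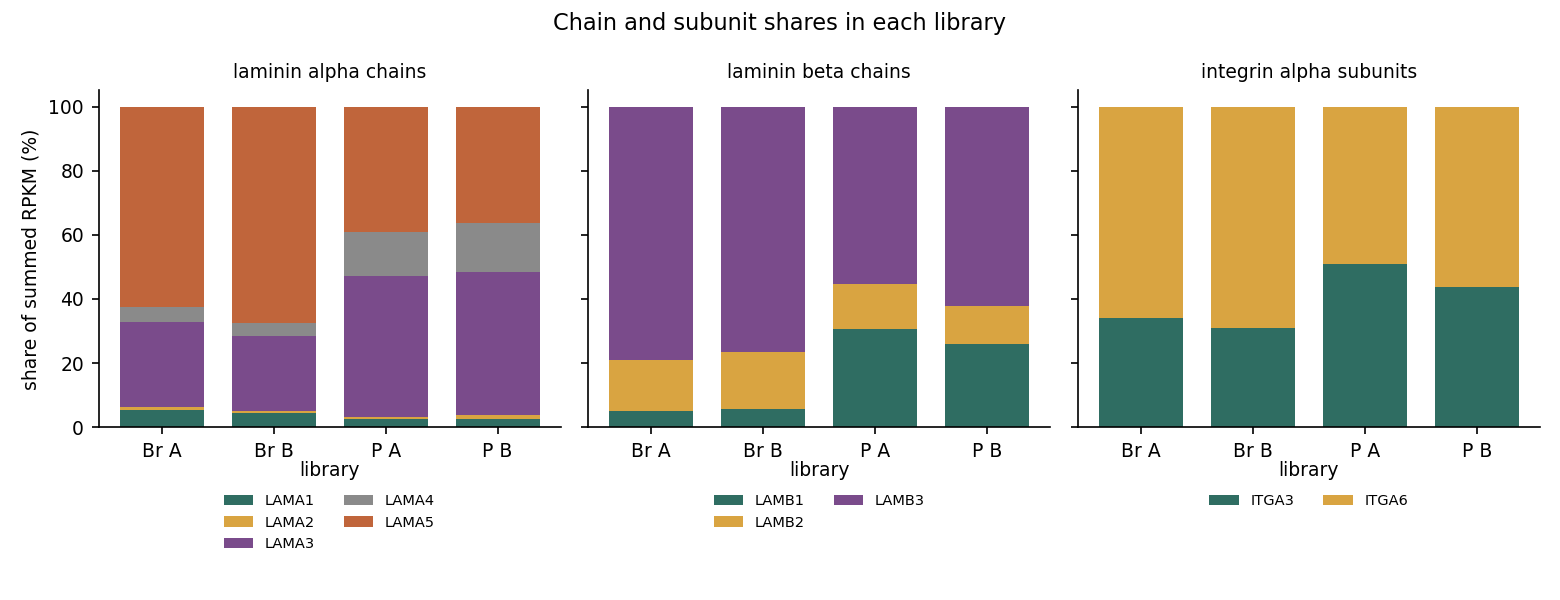
Share of each chain or subunit in the summed level per transcript length (RPKM) of its class in each library, brain metastatic libraries (Br A, Br B) left of parental libraries (P A, P B). LAMB3 fills 76.4% to 79.0% of the β chain bar in brain metastatic libraries and 55.4% to 62.05% in parental libraries, and LAMA5 fills most of the α chain bar only in brain metastatic libraries.

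Among the receptors, ITGA6 was higher relative to ITGA3 and ITGB1, and lower relative to ITGB4, in brain metastatic cells. ITGA6 to ITGA3, per length, was 1.95 and 2.23 in brain metastatic libraries, against 0.963 and 1.29 in parental libraries. ITGA6 to ITGB1 was 0.709 and 0.721 in brain metastatic libraries, against 0.260 and 0.265 in parental libraries. ITGB4 remained a small part of the β subunits in both lines: it made up 2.75% and 2.48% of the summed level of ITGB1 and ITGB4 in brain metastatic libraries, against 0.592% and 0.585% in parental libraries. There were 25.1 and 28.3 times as many ITGA6 as ITGB4 transcripts per length in brain metastatic libraries, against 43.6 and 44.99 times in parental libraries. With 2 libraries against 2, an exact permutation test cannot go below p = 0.333, so these ratios carry no test.

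By level per length (RPKM, CPM per kilobase of longest transcript), ITGA6 stood highest in both lines, at 327 ± 68.8 RPKM in brain metastatic cells and 128 ± 8.69 RPKM in parental cells (SD, n = 2 each). In brain metastatic cells it was followed by LAMB3 at 160 RPKM and ITGA3 at 155 RPKM, which their libraries did not separate, then LAMC1 at 64.1 RPKM and LAMB2 at 35.4 RPKM. LAMA5 at 12.4 RPKM, ITGB4 at 12.2 RPKM and LAMB1 at 11.1 RPKM were not separated from one another, and LAMA3 was lowest at 4.61 RPKM. In parental cells ITGA3 at 115 RPKM was not separated from ITGA6, LAMB3 followed at 77.1 RPKM, and LAMC1 at 45.5 RPKM was not separated from LAMB1 at 37.5 RPKM. LAMB2 at 17.2 RPKM, LAMA3 at 4.29 RPKM, LAMA5 at 3.66 RPKM and ITGB4 at 2.89 RPKM closed the parental order, each above the next in both libraries.

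The brain metastatic libraries were not alike in these genes. All 9 members were higher in library B than in library A, by 0.26 to 1.12 on the log2 scale (median 0.51), while 50.03% of all tested genes were higher in B (median 0.00058). In the parental line 3 of the 9 were higher in B. Members took 0.374% (A) and 0.509% (B) of reads in the brain metastatic line, against 0.258% and 0.234% in parental libraries. Reads of 4 mitochondrial pseudogenes, a sign of library composition, also stood higher in brain metastatic library B: they took 0.0337% and 0.120% in these libraries, against 0.0321% and 0.0319% in parental libraries. Their part in the member values was not tested; without library B the 5 laminin-332 chains and receptors had a median log2 difference of 0.82 and the 4 other chains one of 0.48.

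Genes that act with laminins are given by lists, of which 95 of 111 entries had a row in the table, with all passes by limma at adjusted p below 0.05. Counts are to be read beside the 14.4% of all tested genes that passed (8.61% higher, 5.8% lower). Where a library was left out, they are to be read beside the shares given above for that fit. Of the 3 further laminin chains tested, LAMA1 rose and none fell. LAMA1, the α1 chain of embryonic basement membranes, had 186 and 317 normalized reads in brain metastatic libraries, against 69.1 and 68.9 in parental libraries (log2 1.80, adjusted p = 0.0162), a call lost without either parental library (adjusted p up to 0.141). LAMA2 and LAMA4, with log2 differences of 0.92 and -0.82, did not pass.

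Of 11 other laminin receptors tested, 2 rose and 2 fell, beside 8.61% and 5.8% of all genes, with a median log2 difference of 0.22. Leaving out either parental library left 1 higher and none lower, and leaving out brain metastatic library A gave 5 higher and 3 lower. SDC2, a heparan sulphate proteoglycan of the cell surface, had 1593 and 1655 normalized reads in brain metastatic libraries, against 707 and 779 in parental libraries (log2 1.13, adjusted p = 0.0168). ITGA7, the α7 subunit of a laminin-binding integrin known from muscle, had 46.1 and 64.6 normalized reads in brain metastatic libraries, against 2.56 and 0.970 in parental libraries (log2 4.39, adjusted p = 0.00359). ITGA7 lies under the minimum of 5 CPM for naming a gene and was picked after its values were seen, and its parental values rest on 3 and 1 reads. The genes that fell were BCAM (log2 -0.999, adjusted p = 0.0459), a receptor for the α5 chain, and RPSA (log2 -1.19, adjusted p = 0.0391), a ribosomal protein also called the laminin receptor, whose many processed copies make its counts uncertain. The BCAM call was lost with no filter on low counts (adjusted p = 0.0564) and in 3 of the 4 fits that left out a library (up to 0.353), and that of RPSA without either parental library (up to 0.338).

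Of 6 hemidesmosome genes tested, COL17A1 rose and none fell, beside 14.4% of all genes that passed, so this count says little about the list. COL17A1, the transmembrane collagen that binds α6β4, had 250 and 618 normalized reads in brain metastatic libraries, against 137 and 129 in parental libraries (log2 1.56, adjusted p = 0.0458). The call held in 1 of the 4 fits that left out a library and was lost with no filter on low counts (adjusted p = 0.0605), and library B was again the higher. PLEC, the plectin that ties β4 to keratin filaments, had 11609 and 35970 normalized reads in brain metastatic libraries and 12927 and 8093 in parental libraries, so the lines overlapped.

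Of 14 basement membrane partners tested, 6 rose and 1 fell, beside 8.61% and 5.8% of all genes (median log2 0.34). Both the counts and the median depended on single libraries: 2 passed higher without parental library A and 3 with parental library B left out, with none lower, and with brain metastatic library B left out 6 passed higher and 5 lower, and the median was -0.31. FRAS1 and FREM2, matrix proteins of a complex beneath epithelia, had log2 differences of 2.31 (adjusted p = 0.00141) and 3.20 (adjusted p = 0.00161). NTN4, a netrin that disrupts laminin polymers by binding γ chains, had 1707 and 1009 normalized reads in brain metastatic libraries, against 226 and 359 in parental libraries (log2 2.20, adjusted p = 0.00626). That call was lost without parental library A (log2 1.87). COL4A5, PXDN and FBLN1 were the other genes that passed as higher, named after their values were seen. FBLN1 did so at an adjusted p of 0.0499, which was 0.0513 with TMM scaling, 0.0529 with upper-quartile scaling, 0.0637 with no filter on low counts and 0.0505 with either other pseudocount. Without either parental library the calls of COL4A5, PXDN and FBLN1 were lost. COL18A1, a basement membrane collagen, fell, with 324 and 405 normalized reads in brain metastatic libraries, against 1178 and 920 in parental libraries (log2 -1.52, adjusted p = 0.00955). That call was also lost without either parental library, at log2 -1.34 without A and -1.70 without B. COL4A1 and COL4A2, the main type IV collagen chains, had log2 differences of -0.95 and -0.75 that did not pass. With DESeq2 COL4A1 passed (adjusted p = 0.0324) and COL4A2 did not (adjusted p = 0.0992). With the length and GC correction, which called 3207 of all genes, both passed (limma adjusted p = 0.0094 and 0.027).

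Of 11 laminin-cleaving proteases and their inhibitors tested, 5 rose and none fell, beside 8.61% and 5.8% of all genes (median log2 0.68). Leaving out parental library A gave 1 higher, and leaving out B of that line gave 2 higher, with none lower in either fit, while 7 passed higher and 1 lower when brain metastatic library A was left out. MMP9, a gelatinase, had 128 and 173 normalized reads in brain metastatic libraries, against 23.9 and 12.6 in parental libraries (log2 3.02, adjusted p = 0.00487). CTSS, the cysteine protease cathepsin S, had 1089 and 3005 normalized reads in brain metastatic libraries, against 328 and 404 in parental libraries (log2 2.31, adjusted p = 0.013). PLAT, tissue plasminogen activator, had 18073 and 11863 normalized reads in brain metastatic libraries, against 3625 and 5674 in parental libraries (log2 1.69, adjusted p = 0.0106). The other genes that rose, named after their values were seen, were MMP3, a stromelysin, and MMP14, a membrane-bound metalloprotease. Without either parental library the calls of CTSS and MMP14 were lost. Those of PLAT and MMP3 were lost without parental library A, and that of MMP9 without parental library B. TIMP1, an inhibitor of matrix metalloproteases, had a log2 difference of -0.74 that did not pass (limma adjusted p = 0.0595). It passed with DESeq2 (adjusted p = 0.0247), which called 20.2% of all genes, and not with edgeR (adjusted p = 0.0537).

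**Figure D4:**
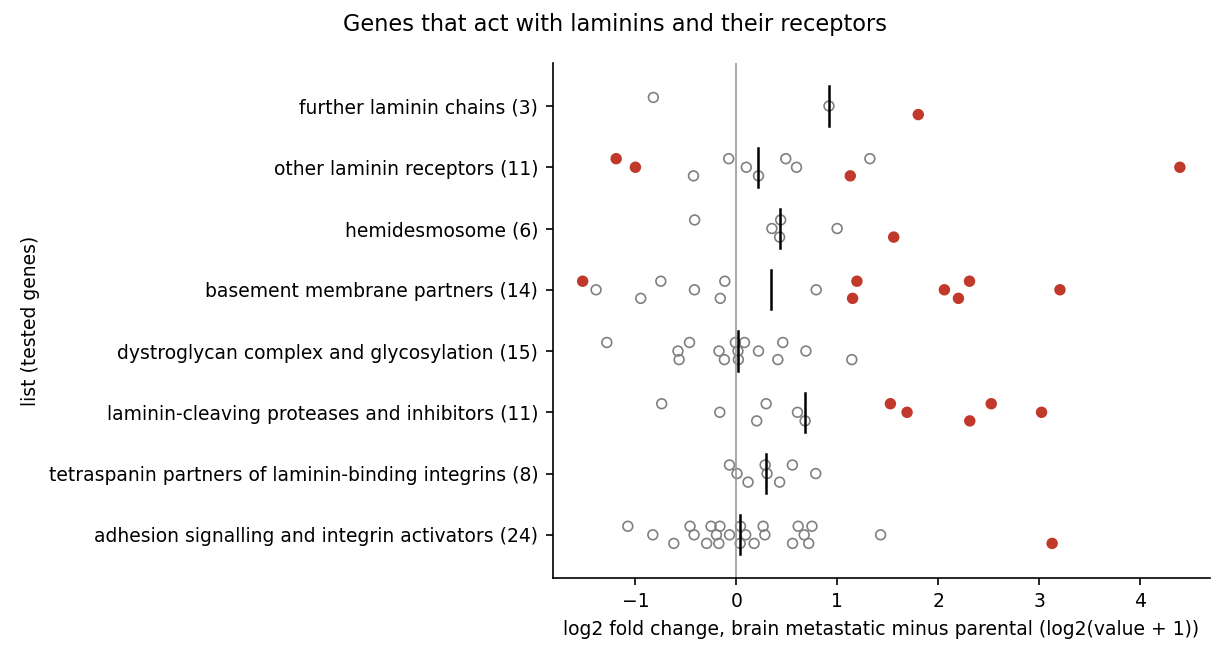
Log2 difference of brain metastatic minus parental cells for each tested gene of the partner lists, with a point per gene, filled where it passed the test, and a vertical line at the median of each list. Proteases and basement membrane partners hold most of the genes that rose. The tetraspanin and dystroglycan lists hold none that passed, beside 14.4% of all tested genes.

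Nearness in pattern over the 4 libraries was measured for LAMA3, LAMB3, ITGB4 and LAMB1 as the root mean square distance of centred log2 values, among 10885 genes, and none of the 3 genes nearest to each was a laminin or an integrin. For LAMB3 the closest were TNFRSF10A at a distance of 0.0351, CHST11 at 0.0361 and ERCC5 at 0.0432. For LAMA3 the closest was TXNDC11 at 0.0155 and for ITGB4 it was ROBO3 at 0.0589. LAMB1 had no gene within 0.1, and IGF2 was closest at 0.1002. With 4 libraries in 2 lines, closeness was shared by unequal numbers of genes: 79 lay within 0.1 of LAMA3, 48 within 0.1 of LAMB3 and 5 within 0.1 of ITGB4.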

How the data were processed

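RNA-seq read signal was analysed for 2 MDAMB231Br and 2 MDAMB231 libraries. Per the submitters' processing notes, HISAT2, featureCounts, DESeq2 and the build GRCh37 were used; versions, gene annotation, strand setting and library kit were not given in the sources used here. The values the authors deposited are a gene-wise signal, reads divided by a size factor, and not raw counts. Dividing each column by its step gave whole reads for 100% of values within 0.01 reads. Column headers name only the cell line. The 67 rows without a gene name, holding 0.031% to 0.0369% of reads, were left out.

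Genes were kept by edgeR's filterByExpr (minimum count 10, minimum total 15), which left 14424. The main test was limma-trend on log2(value + 1), brain metastatic minus parental, with Benjamini-Hochberg adjustment over all tested genes and a threshold of 0.05; this scale understates changes of low genes. Alternatives were edgeR's quasi-likelihood test and DESeq2 on recovered reads, TMM and upper-quartile scaling, a stricter or no filter, a smaller and a larger pseudocount, a loess correction for length and GC (span 0.5) and leaving out each library, which assumes that the lone library left in a line varies like those of the other line. The libraries of a line are not copies (chi-square per degree of freedom 124 in the brain metastatic pair and 62.05 in the parental pair). Levels per length used each gene's longest transcript in GENCODE 29, a release for another build, by symbol. Software was Python 3.11.15, R 4.3.3, and the packages DESeq2 1.42.0, edgeR 4.0.16 and limma 3.58.1.

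The members and lists were chosen with earlier results of these data known. Named genes were all members and, from each of 8 lists, up to 3 passing genes with the largest increase and 3 with the largest decrease at 5 CPM or more, or the most abundant gene where none passed, plus the 3 genes nearest in pattern to each of LAMA3, LAMB3, ITGB4 and LAMB1. One gene of the lists is not reported here. The text names fewer of the last, and other names were picked after their values were seen.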

Additional observations from a re-analysis of the deposited data

How the results depend on the processing

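Outside the fits that left out a library, all 9 other settings kept the direction of every member except LAMA3, whose log2 difference was -0.21 with the length and GC correction, and kept every member call except that of LAMB2. That correction called 3207 of all genes; the others called 1869 or more. Leaving out a library gave 1 to 7 members called (1 to 6 higher, 0 to 1 lower) and 421 to 5257 genes called in all; the low counts came without a parental library and the cause was not tested. LAMA3 ranged from -0.33 to 0.50 in those fits. CD63 turned to 0.12 with the length and GC correction and ranged from -0.35 to 0.22, and RHOA from -0.50 to 0.0011, when a library was left out. The gain of LAMB3 in β chain share was 19.0 percentage points, and 15.7 to 22.3 when a library was left out. No paired analysis was possible because the columns carry no replicate numbers. LAMC1 and ITGA3, at log2 0.52 and 0.47, did not pass with 2 libraries a line. With 487 reads or more for every member, counting error was small beside the spread between the brain metastatic libraries.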

Other observations

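Of 15 genes of the dystroglycan complex, the other main class of laminin receptor, and of the enzymes that put its laminin-binding sugars on, none passed the limma test in either direction (median log2 difference 0.02), with 1 at an unadjusted p below 0.05, none called by edgeR and 1 by DESeq2. Of all tested genes 14.4% passed limma, 15.4% edgeR and 20.2% DESeq2, and 4590 of 14424 had an unadjusted limma p below 0.05. DAG1, the receptor itself, had 6381 and 8100 normalized reads in brain metastatic libraries and 6753 and 5646 in parental libraries (log2 0.22, limma adjusted p = 0.555).

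Of 8 tetraspanins, which sit beside α3β1 and α6β1 in the membrane, none passed limma (median log2 0.29), with 1 at an unadjusted p below 0.05 and none called by edgeR or DESeq2. At a share of 14.4% of all genes by limma, 0 of 8 says little about the list. CD63, the most abundant, had 8822 and 7897 normalized reads in brain metastatic libraries and 7188 and 10645 in parental libraries. CD151, the tetraspanin that binds the α3 and α6 subunits directly, had 5217 and 3864 in brain metastatic libraries and 2983 and 3728 in parental libraries (log2 0.43, limma adjusted p = 0.273); it was named after its values were seen.

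Of 24 adhesion signalling genes, TNS1 alone passed limma (log2 3.13, adjusted p = 0.00303), where 14.4% of all tested genes passed. TNS1 had 115 and 145 normalized reads in brain metastatic libraries and 15.4 and 12.6 in parental libraries. It lies under 5 CPM and was named after its values were seen. RHOA, the most abundant gene of the list, had a log2 difference of -0.25 (limma adjusted p = 0.522).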
